A study of Rattus norvegicus with 2 samples.

Results

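The complement genes studied here were 9 components and regulators made by stromal and glial cells, namely C1r, C1s, C2, C3, Cfb, Serping1, Clu, Cd55 and Cd59. They were taken from a list of symbols, which was chosen with earlier results of these data known. Of these 9, 7 had a probe set of their own on the array, out of 14217 such genes in all. Each probe set holds several short probes for a transcript, and their brightness is combined into a single signal intensity. Cd59 was listed under its current rat symbol Cd59b and found through its gene identifier. C2 and Cfb were covered only by 4 probe sets that the probe annotation names for both genes. Ganglia with the cell bodies of SNs, the DRGs, came from both sides of female Sprague-Dawley rats aged 4 weeks. IP-B12, a line of rat pulmonary carcinoma that destroys bone, had been placed (100000 cells) in the marrow of the right tibia. RNA was taken after 14 days. The inoculated right side gave the tumor-side array and the left side the control array, 1 array each. All animals thus carried a tumor, no injection of the left tibia is described, and the description of the arrays gives neither the number of rats nor the levels of the ganglia, though the methods elsewhere name lumbar ganglia.

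Complement is a cascade of plasma and tissue proteins that marks targets for removal and can open pores in their membranes. The classical pathway starts when C1q binds a target and the attached proteases C1r and C1s become active. C1s then cleaves C4 and C2, the alternative pathway uses Cfb instead, and both routes split C3, the hub of the cascade. Serping1 encodes the C1 inhibitor, which blocks C1r and C1s. Cd55 speeds the decay of the enzymes that split C3, Cd59 stops assembly of the membrane pore, and clusterin, encoded by Clu, binds the soluble terminal complex and acts as a chaperone outside cells. The liver makes most of the complement in plasma, while fibroblasts, macrophages and glia make it locally in nerve tissue.

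The control array had a median signal of 69.0 and the tumor-side array one of 72.7. A signal rule asked that the higher signal of a gene reach the median of its array, and genes that met it had a median log2 ratio (tumor side to control) of 0.08, and ratios below are to be read against it. With 1 array per side no test was possible. As a measure of scatter, the ratios of the studied genes are given beside the middle 95% of the log2 ratios of the 500 probe sets nearest in mean signal, and for other lists the genes outside that range are counted. Disagreement between probe sets of a gene is given as the same-gene SD. This is the SD of log2 ratios within genes that have several probe sets, from probe sets within a fold of 2 of that signal. Since it comes from the same 2 arrays, it misses error that all probe sets of a gene share. Neither the range nor this SD takes the place of replicate animals. All 9 measured SN markers were above the signal rule, with a summed signal of 60708 in control and 60244 in tumor-side ganglia. Their log2 ratios ran from -0.13 to 0.05 with a median of -0.03, so all 9 lay below the median gene. On dimmer probe sets of these genes the log2 ratios reached -1.52 (Trpv1) and 0.62 (Calca).

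All 7 complement genes with a probe set of their own met the signal rule, and the ratio of each stayed under a fold of 1.5 either way. The proteases C1r and C1s and their inhibitor Serping1 exceeded the median gene on the tumor side, with ratios of 1.24, 1.13 and 1.14. C3, Clu, Cd55 and Cd59 had tumor-side signals 0.361% to 4.16% above the control signals and lay below the median gene. None of the 7 lay outside the middle 95% of probe sets of like signal. Among all 14217 genes, 7.97% were higher by a fold of 1.5 or more and 6.25% were lower by as much. Among the 9691 genes above the rule these shares were 1.19% and 0.743%, so that a count of 0 among 7 genes is close to the background. The median log2 ratio of the 7 was 0.06, against 0.08 for all genes and for genes above the rule.

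**Figure D1:**
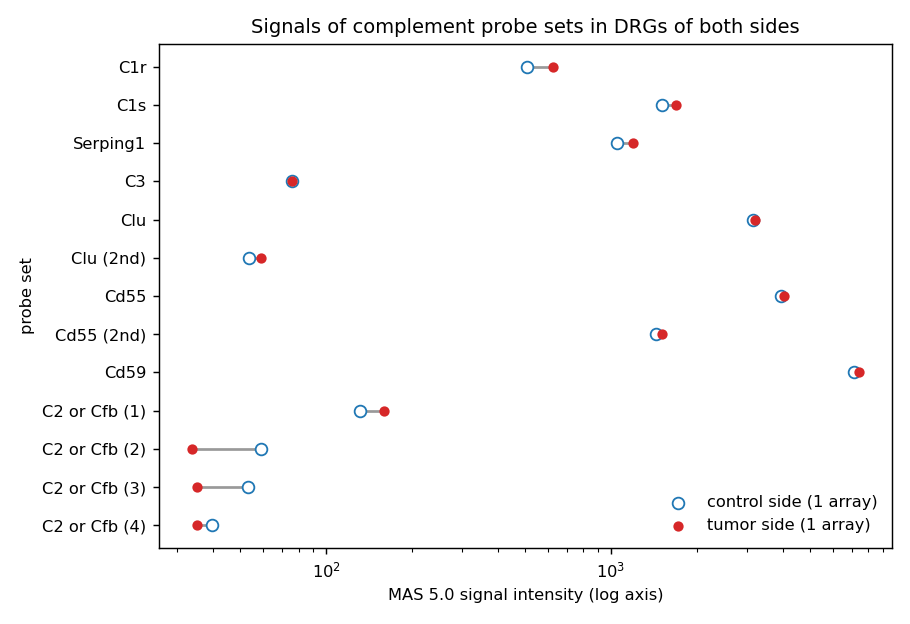
MAS 5.0 signal intensity of each complement probe set on a log axis, with an open circle for the control-side array and a filled circle for the tumor-side array. C1r, C1s and Serping1 lie to the right on the tumor side by ratios of 1.13 to 1.24, C3, Clu, Cd55 and Cd59 nearly coincide, and the 4 probe sets shared by C2 and Cfb, numbered from the brightest, go both ways.

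C1r had the largest ratio of the 7. Its signal was 506 in control and 626 in tumor-side ganglia, a log2 ratio of 0.31 with a same-gene SD of 0.13 (413 genes). Of the 500 probe sets nearest in signal, 28 had a ratio as high or higher, and their middle 95% ran from -0.16 to 0.35. The ratio of C1r thus lay high within this range and above 91.4% of the genes above the signal rule. C1s, the partner of C1r in the C1 complex and its neighbour on chromosome 4, had signals of 1504 in control and 1697 in tumor-side ganglia. Its log2 ratio was 0.17 with a same-gene SD of 0.08 (167 genes), within a middle range of -0.10 to 0.27. The log2 ratio of C1r exceeded that of C1s by 0.13, a gap of about the size of the same-gene SD at the signal of C1r.

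Serping1 had a signal of 1050 in control and 1196 in tumor-side ganglia. Its log2 ratio of 0.19, with a same-gene SD of 0.09 (257 genes), differed from that of C1s by 0.01, so that protease and inhibitor cannot be put in order. Of the 500 nearest probe sets, 80 had a ratio as high or higher than Serping1 and 94 one as high or higher than C1s. C1q, the part of the complex that binds the target, is made of 3 chains. C1qa had 310 in control and 341 in tumor-side ganglia, C1qb 69.3 and 81.8, and C1qc 163 and 182. The log2 ratios of the 5 subunits of C1 ran from 0.14 to 0.31 with a median of 0.17, and all 5 lay above the median gene and inside the range of probe sets of like signal. The 5 subunits were grouped after their values were seen.

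C3 had a dim probe set near the median of the arrays, with a signal of 75.8 in control and 76.1 in tumor-side ganglia. Its log2 ratio of 0.01 was the smallest of the 7, but scatter at this signal was wide, with a same-gene SD of 0.31 (545 genes) and a middle range of -0.55 to 0.64. A log2 ratio of the size of that of C1r, 0.31, is about equal to this SD and lies inside this range, and would not have stood apart for C3.

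To let a reader see the regulatory sequence of the genes with the largest and the smallest ratio, the 250 bases before the start of C1r and C3 are given here. Promoters were matched by symbol in the RefSeq table of the build GRCr8, which held C1r, C3 and Cd55 of the 9 genes. The window before C1r spans chr4:159098763-159099012 on the + strand and that before C3 chr9:2201340-2201589 on the - strand. Each is written 5′ to 3′ with capitals for matches to the ends of the NF-kB site, GGGNNNNNCC.
C1r: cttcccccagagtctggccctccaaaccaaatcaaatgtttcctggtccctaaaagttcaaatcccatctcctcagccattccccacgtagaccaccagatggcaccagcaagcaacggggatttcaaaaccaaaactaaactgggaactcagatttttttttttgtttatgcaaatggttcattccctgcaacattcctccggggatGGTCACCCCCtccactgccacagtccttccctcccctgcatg
C3: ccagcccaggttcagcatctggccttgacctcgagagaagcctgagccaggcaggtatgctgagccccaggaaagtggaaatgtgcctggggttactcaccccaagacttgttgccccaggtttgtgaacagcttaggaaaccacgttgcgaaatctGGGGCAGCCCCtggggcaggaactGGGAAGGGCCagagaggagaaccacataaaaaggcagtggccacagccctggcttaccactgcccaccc
Motifs were searched on both strands. The NF-kB pattern matched in 43.5% of 27457 rat promoters of this length. It had 1 match before C1r, which starts 42 bases before the gene, and 3 before C3, starting 93, 92 and 69 bases before it, of which the first pair overlap. The gamma interferon site TTCNNNGAA (7.52% of promoters), the interferon element core GAAANNGAAA (3.29%), the AP-1 site TGANTCA (6.36%), the CCAAT box (34.3%), the TATA box TATAAA (13.1%) and the GC box GGGCGG (32.4%) had no match in either window. These matches describe letters only and were not measured as binding.

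The inhibitors on cell surfaces and clusterin were read by bright probe sets, and their ratios were small. Cd59, the inhibitor of the membrane pore, had a signal of 7124 in control and 7421 in tumor-side ganglia, a log2 ratio of 0.06 with a same-gene SD of 0.05 (27 genes). Cd55 had 3944 and 4036 on its brighter probe set and 1439 and 1513 on the other, which gave log2 ratios of 0.03 and 0.07. Both probe sets of Cd55 thus lay within 0.05 of the median gene. Clu had 3151 and 3189, a log2 ratio of 0.02 with a same-gene SD of 0.06 (82 genes), and 53.6 and 58.9 on a dim probe set, with a log2 ratio of 0.14 inside a wide range of -0.63 to 0.74. At the signals of the bright probe sets the middle 95% of ratios was narrow, from -0.09 to 0.24 for Clu, -0.09 to 0.20 for Cd55 and -0.09 to 0.18 for Cd59, so these 3 genes gave the tightest readings.

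**Figure D2:**
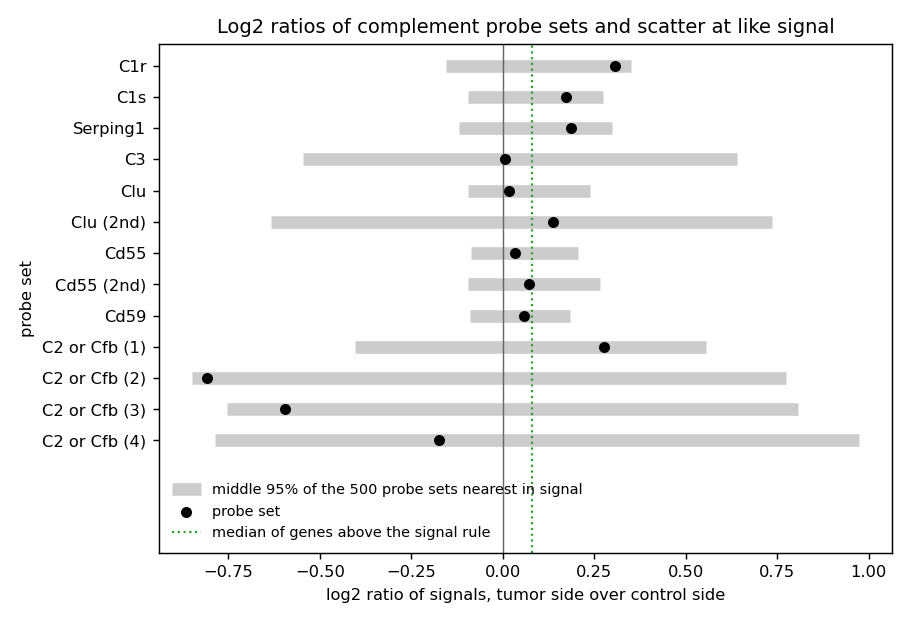
Log2 ratio of signals, tumor side to control, for each complement probe set (points), with grey bars for the middle 95% of the 500 probe sets nearest in mean signal and a dotted line at the median of genes above the signal rule, 0.08. All points lie within their bars, C1r (0.31) near the upper end of its bar and a dim probe set of C2 or Cfb (-0.81) near the lower end.

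The direction of C3, Clu, Cd55 and Cd59 depended on the scaling. With log2 ratios centred on the median all 4 were negative, at -0.08, -0.07, -0.05 and -0.02, whereas C1r, C1s and Serping1 remained positive at 0.22, 0.09 and 0.10. After quantile normalization Cd59 stayed positive at 0.02 and C3, Clu and Cd55 turned to -0.08, -0.04 and -0.03. After loess they were -0.06, -0.05 and -0.03, with Cd59 at 0.01.

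C2 and Cfb, which encode the related protease subunits of the classical and the alternative pathway, are neighbours on chromosome 20, and their values cannot be assigned to either gene. The brightest shared probe set, 1383391_a_at, had 131 in control and 159 in tumor-side ganglia (log2 ratio 0.28). The other 3 were dimmer, below the signal rule and lower on the tumor side. Probe set 1393219_at had 59.3 and 33.9 (log2 ratio -0.81), probe set 1389470_at 53.0 and 35.1 (-0.59), and probe set 1383392_at 39.9 and 35.3 (-0.17). Of the 4, 2 were thus at least 1.5 times lower, against 10.1% of all 31042 probe sets, and none was at least 1.5 times higher, against 12.8%. The lowest lay inside the middle range of its neighbours in signal, -0.85 to 0.78, and 15 of these 500 had a ratio as low or lower. The 4 probe sets did not move together, and with a same-gene SD of 0.20 at the brightest and of 0.41 to 0.46 at the others no direction can be given for C2 or Cfb. The fourth component, which C1s cleaves together with C2, was likewise read by 1 probe set named for both C4a and C4b, with 98.3 and 127 (log2 ratio 0.37, range of like signal -0.47 to 0.54).

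Other genes of the cascade were taken from a list of 55 complement genes, the 9 above included, of which 42 had a value, 5 had shared probe sets only and 8 were not analysed here. Of the 42, 25 met the signal rule, and not one of the 25 reached a fold of 1.5. Their log2 ratios ran from -0.35 to 0.36 with a median of 0.14, and 15 of them lay above the median gene. Both ends of this span were genes that met the rule only on the side where they were higher, Itgb2 and C8g, and the 23 genes that reached the median of each array ran from -0.12 (Cfd) to 0.31 (C1r). By the range of neighbours in signal, none of the 42 stood outside. Over all 42 the median was 0.11. At a fold of 1.5 or more, 3 were higher (7.14%) and 6 lower (14.3%), where all genes gave 7.97% and 6.25%. All 9 of these genes were below the signal rule. At a fold of 2 there were 1 higher and 5 lower, where all genes gave 4.31% and 3.71%, and at a fold of 3 there were 0 and 3, where all genes gave 2.34% and 2.03%.

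By role, the 5 recognition molecules above the rule were all higher than the median gene, while the 4 below the rule were lower on the tumor side. The log2 ratios of these 4 ran from -1.73 (Mbl2) to -0.08 (Fcna), inside the wide ranges at like signal. Beside the C1q chains, those above the rule were the soluble collectin Colec11, with 73.2 and 86.1, and the scavenger receptor collectin Colec12, with 625 and 745 (log2 ratio 0.25). The lectin pathway proteases Masp1, with 128 and 140, and Masp2, with 148 and 165, had log2 ratios of 0.13 and 0.17 on their brightest probe sets, while over all its probe sets Masp1 ranged from -0.67 to 0.17 and Masp2 from 0.17 to 1.89. Cfd, the protease that activates Cfb, was the only one of the 5 measured proteases with a lower tumor-side signal, at 80.0 in control and 73.7 in tumor-side ganglia (log2 ratio -0.12). In the terminal pathway C8g, a subunit of the pore, had 68.1 and 87.1, a log2 ratio of 0.36. It met the signal rule on the tumor side only, where it was higher. Cfp, which encodes properdin, a stabilizer of the alternative pathway, had 74.9 and 86.2 (0.20), while its other probe set had a log2 ratio of -2.76.

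Among soluble regulators beside Serping1 and Clu, the protease Cfi, which degrades C3b and C4b, had 133 and 153 (log2 ratio 0.19) and Vtn, encoding vitronectin, 265 and 311 (0.23). Of the 3 membrane regulators measured beside Cd55 and Cd59, Cr1l lay close to the median gene and Susd4 below it, while Cd46, which was below the signal rule, lay above it. Cr1l, encoding the rodent inhibitor Crry, had 1026 and 1090 (0.09), with 0.62 on its other probe set, and Susd4 had 815 and 791 (-0.04). Cd46, a membrane cofactor for the cleavage of C3b, had 20.1 and 26.9 (0.43), inside a wide range at like signal of -1.28 to 1.42. Of the 4 receptors above the rule, none lay above the median gene on its brightest probe set. Itgb2, the shared chain of complement receptors of leukocytes, had 87.6 and 68.8 (-0.35) and was at or above the median on the control array only. C1qbp had 1317 and 1251 (-0.07), and the anaphylatoxin receptor C5ar1 203 and 206 (0.02). Cd93 had 124 and 122 (-0.03), with 0.65 on its other probe set.

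Dim genes gave the extreme ratios. The 3 higher ones were C5 with 14.1 and 21.3, Cpn1 with 28.5 and 46.4, and C6, whose control-side signal of 3.83 did not exceed the trp controls on that array (up to 5.39), against 9.39 on the tumor side. The 6 lower ones were Mbl1 with 10.4 and 6.70, Mbl2 with 28.5 and 8.62, C4bpb with 18.7 and 6.17, Itgax with 12.1 and 3.92, Cr2 with 6.34 and 2.72, and C4bpa with 3.90 and 1.60. C4bpa did not exceed the trp controls on either array, nor did Itgax and Cr2 on the tumor-side array, where these controls reached 4.63. The range of ratios at like signal reached from -1.83 to 1.89 for Mbl2, so these values carry no direction.

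**Figure D3:**
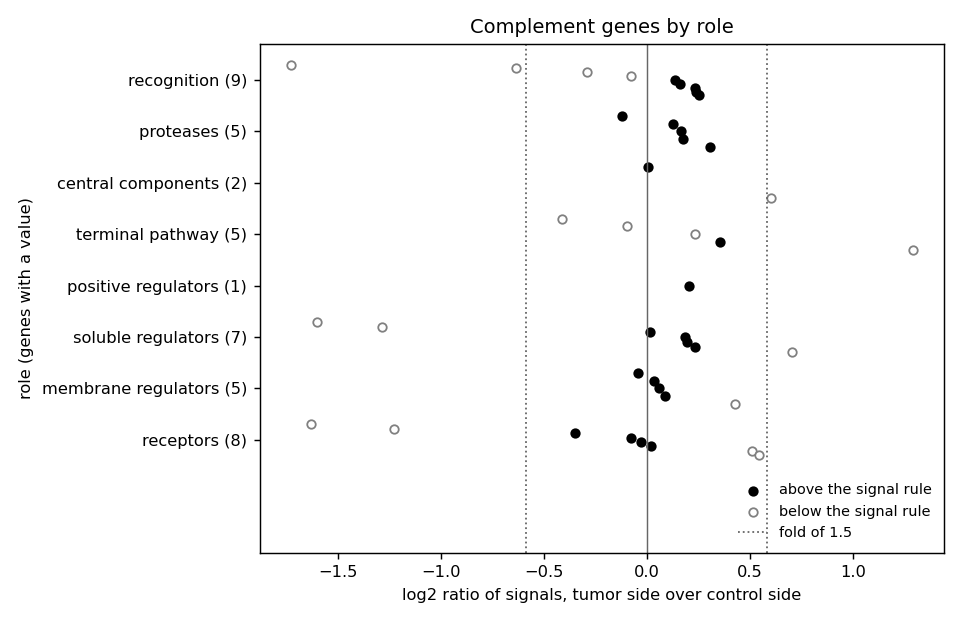
Log2 ratio of signals, tumor side to control, for the 42 complement genes with a value, by role, 1 point per gene, filled above and open below the rule, with dotted lines at a fold of 1.5. Filled points lie between -0.35 and 0.36 and all points beyond the fold are open.

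Cells that can make complement were followed by marker lists, since in whole ganglia more cells of a type and more RNA per cell cannot be told apart. Fibroblast markers (10 of 10 measured and above the rule) had a median log2 ratio of 0.22. Their summed signal was 31395 in control and 34087 in tumor-side ganglia. Their log2 ratios ranged from Dcn at -0.02 to Postn at 0.51, the latter with signals of 588 and 840. Meningeal markers (7 of 7 measured, 5 above the rule) had a median of 0.23, with sums of 6325 and 7520. Macrophage markers (10 of 10 measured, 8 above the rule) had 0.18, with sums of 1669 and 1956, and ranged from Cd68 at -0.15 to Tyrobp at 0.49. The 5 endothelial markers above the rule had a median of 0.17, and all 7 measured had one of 0.10. The log2 ratios of C1s and Serping1, 0.17 and 0.19, were near the 3 medians of fibroblast, meningeal and macrophage markers. That of C1r, 0.31, exceeded all of these medians. The part of these cells in the ratios of C1r, C1s and Serping1 was not tested. Satellite glia markers had a median of 0.13 (5 of 7 measured), with sums of 10627 and 10882, endothelial markers 0.10 (7 of 8), with 1497 and 1653, and Schwann cell markers 0.00 (6 of 8), with 19784 and 19805. Of 8 hepatocyte markers, 6 were below the rule, with Alb, the gene of albumin, at 13.4 and 14.8, and the sums of the 8 were 328 and 357. Granulocyte markers (4 of 8 measured, median -1.09) had sums of 1164 and 559, erythroid markers (3 of 5, -0.49) of 4282 and 3314, and bone markers (6 of 7, 0.98) of 833 and 1842. Of the 7 skeletal muscle markers (median -1.78), 6 were lower on the tumor side by a fold of 2.06 to 7.48, with sums of 1088 and 344, and Myh1, the brightest, had 1583 and 1742. Outside the range at like signal lay 3 fibroblast, 3 meningeal, 1 macrophage (Tyrobp), 3 granulocyte, 2 erythroid, 6 skeletal muscle, 5 bone and 1 SN marker. The 4 measured of 6 lymphocyte markers were all below the rule, with sums of 18.0 and 28.7. None of these markers was listed at 0.

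Interferons and cytokines such as IL-6 and IL-1 are known to raise C3, Cfb, C1r, C1s and Serping1 in many cells. Of 23 genes of the interferon response, 21 had a value and 17 were above the rule, with a median log2 ratio of 0.14 and none of the 17 beyond a fold of 1.5. Of the 15 that reached the median of each array, the antiviral gene Mx1 was the highest, with 185 and 263 (0.51), and the 1 gene of the 21 outside the range at like signal (-0.34 to 0.44). Other antiviral genes were Isg15 with 122 and 165 and Oas1a with 51.2 and 74.8, which met the rule on the tumor side only. The regulator Irf1 had 118 and 126 and the receptor chain Ifngr1 564 and 574. Of 22 genes of the acute phase and cytokine signalling, 21 had a value and 13 were above the rule, with a median of 0.12. Of these 13, 1 was at least 1.5 times higher, Lifr, a receptor chain of the IL-6 family, with 52.4 and 83.9. Lifr met the rule on the tumor side only, where it was higher, its ratio of 0.68 lay inside the range at like signal (-0.57 to 0.77), and its other probe set had a log2 ratio of -0.15. None of the 12 genes that reached the median of each array passed the fold. Cp, which encodes ceruloplasmin, had 671 and 852 (0.34), and Nfkbia, the inhibitor of NF-kB, 236 and 175 (-0.43). These lay outside the range at like signal, of which the upper end was 0.32 for Cp and the lower end -0.36 for Nfkbia, as did the dim acute phase gene Hp, with 27.6 and 5.12. Il6 was dim, with 12.2 and 14.6, and Stat3, which carries its signal, had 1078 and 1116 (0.05).

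**Figure D4:**
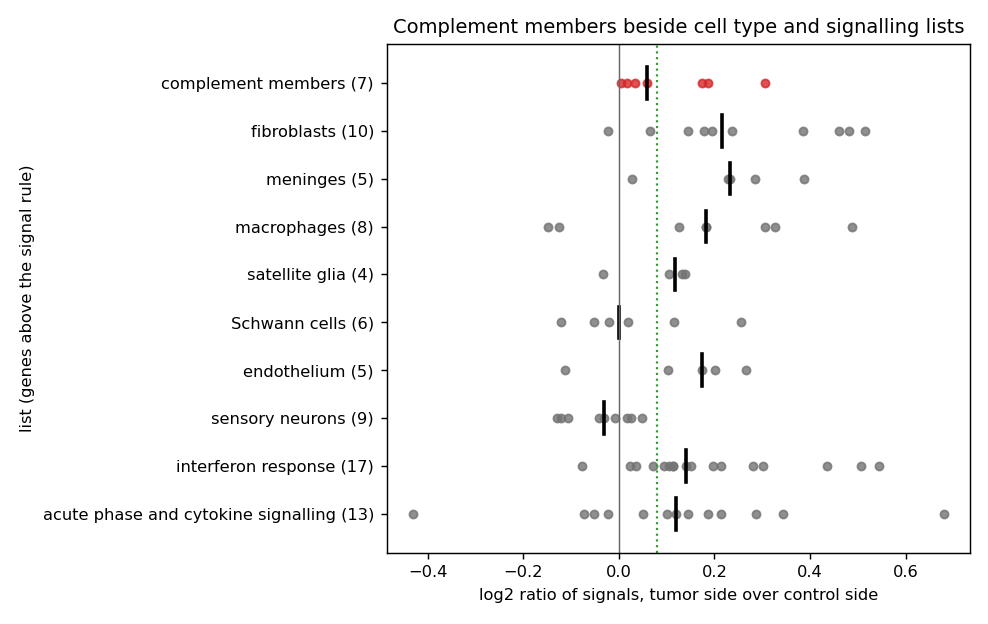
Log2 ratio of signals, tumor side to control, for genes that met the signal rule, a point for each, with black bars at list medians, gene numbers in brackets and a dotted line at 0.08, the median over every gene that met the rule. The 7 complement genes (red) have a median of 0.06, between the Schwann cell and SN markers (0.00 and -0.03) and the macrophage, fibroblast and meningeal markers (0.18, 0.22 and 0.23).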

How the data were processed

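RNA of DRGs from the control side and the tumor side (100 ng total RNA each) was hybridized for 16 h on arrays of the type GeneChip Rat Genome 230 2.0, 1 per side. The authors computed the deposited signal intensity values, on a linear scale, with Microarray Suite version 5.0 (MAS5 in the submitters' processing notes) at default settings. Detection calls were not used. Log2 ratios of tumor side over control side were computed from these intensity values without a pseudocount. Of 31042 probe sets beside 57 controls, 20826 name 1 gene, 436 several, and 9780 are unnamed here. The brightest probe set by mean log2 signal stood for a gene, and symbols missing from the probe table were looked up through RefSeq gene identifiers. The members, the gene lists and the settings were chosen with earlier results of these data known. All 9 members, complement genes above the signal rule and up to 3 genes of each other list were to be named. C5, C6, Cpn1, the 6 dim lower genes, C4, Stat3, Il6 and Hp were chosen after values were seen. So were Irf1, Cd46, Myh1, Ifngr1, Cd68, Dcn, Alb and the motifs.

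Alternatives included loess (span 0.3), quantile normalization, centring of log2 ratios on their median, a pseudocount of 11.1 (percentile 20), filters on signal, the mean over the probe sets of a gene, probe sets ending in _s_at or _x_at left out, and folds of 2 and 3. On simulated data with known folds, recovery of the log2 ratios was checked for the main setting and for centring only. The lists and signal filters were not part of that check. The work ran under Python 3.11.15 with pandas 2.3.3, numpy 2.4.6, matplotlib 3.10.9 and statsmodels 0.14.6. The number of arrays limits the precision. No genome build is named for the arrays, and the coordinates given are those of the RefSeq promoter table (GRCr8).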

Additional observations from a re-analysis of the deposited data

How the results depend on the processing

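None of the 7 studied genes with a probe set of their own passed a fold of 1.5, 2 or 3 under any alternative run. The median log2 ratio of the 7 genes was -0.025 with median-centred log2 ratios, which take 0.08 from every ratio. Under the other alternatives that kept all 7 it was between 0.01 and 0.08. The signal filter at percentile 75 left out C3, and the median of the 6 genes kept was 0.12. Of 42 values of single genes in these settings, 31 moved by less than the same-gene SD and 11 by more, all 11 under quantile normalization, centring or loess. Some of the 31 could not move. No probe set of these genes ended in _s_at or _x_at, so leaving such probe sets out changed nothing. For genes with 1 probe set, the mean over probe sets is the main value itself. Of the wider list, 3 genes were higher by a fold of 1.5 and 6 lower. With quantile normalization, centring or loess there were 2 and 6, and with the mean over the probe sets of a gene 4 and 6. With the pseudocount there were 0 and 3, at a fold of 2 there were 1 and 5, and at a fold of 3 there were 0 and 3. Each of the 3 signal filters gave 0 and 0. Pseudocount, filters and folds lower such counts by their own construction. No paired analysis was possible because there is only 1 array for a side. Dim signal limits the reading, since the range of ratios widens as signal falls, from -0.09 to 0.18 around Cd59 to -0.55 to 0.64 around C3.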
